A study of Mus musculus with 8 samples.

Results

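The 10 genes described here encode the main apical and basolateral carriers of peptides and amino acids in the small intestine. They were taken by name from a table of 56941 genes, all 10 were present, and all 10 were among the 18025 genes with enough counts to test. The RNA came from whole jejunum of naive C3H/HeJ mice (C3H) and naive C57BL/6 mice (B6), both inbred strains with no added transgene or deletion named in the labels, 4 libraries per strain. The labels give an age of 6 to 8 weeks for the mice and a shared housing of at least 8 weeks before tissue collection, with no treatment, do not give the age at collection or the C57BL/6 substrain, and place all libraries in batch 1. C3H/HeJ mice are known for a defective Tlr4, the receptor for bacterial endotoxin. C3H libraries carry the numbers 1, 3, 4 and 5, and B6 libraries the numbers 2, 3, 4 and 5. Values per library are listed in that order. Nothing in the labels states that every library came from its own animal, so a p-value here reflects only how much these libraries varied, which may be technical in part.

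Absorptive enterocytes take up protein digestion products at the brush border as dipeptides and tripeptides through a proton-coupled carrier and as free amino acids through sodium-coupled, proton-coupled and exchange carriers. Amino acids leave towards the blood through carriers in the basolateral membrane, several of which are heteromers of a heavy chain (Slc3 family) that brings a light chain (Slc7 family) to the membrane. Inherited loss of human members causes cystinuria (SLC3A1, SLC7A9), Hartnup disorder (SLC6A19) and lysinuric protein intolerance (SLC7A7).

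Of the 10 transporter genes, 9 had at least 185.4 CPM (read counts scaled by each library's TMM-adjusted size) in every library, and 2 differed between the strains, a share near the 21.4% of all genes tested that differed and so no result about the group. Slc15a1, the peptide transporter PEPT1, and Slc36a1, a proton-coupled amino acid transporter, were lower in C3H by 25.8% and 28.1%. Slc6a19, the main apical carrier of neutral amino acids, had the largest estimated difference of the 10 and lay just outside the threshold. The other 7 genes did not pass the test. Genes were tested by edgeR's quasi-likelihood method, p-values were adjusted by Benjamini-Hochberg over all genes tested, and the threshold was 0.05. A log2 fold change is C3H over B6.

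The 250 bases before the annotated start sites of 5 of the genes are shown first, because the 3 genes whose libraries did not overlap between strains (Slc15a1, Slc36a1 and Slc6a19, a share near the 24.4% of all genes tested without overlap) and the pair that forms the cystine carrier (Slc3a1 and Slc7a9) carry most of what follows. Capitals mark exact matches, on either strand, to short motifs of intestinal transcription factors. The sequences are from RefSeq on build GRCm38.p6, run 5′ to 3′ on the gene's strand, and are the reference (C57BL/6J) sequence for both strains.
Slc15a1 (chr14:121505255-121505504, minus strand): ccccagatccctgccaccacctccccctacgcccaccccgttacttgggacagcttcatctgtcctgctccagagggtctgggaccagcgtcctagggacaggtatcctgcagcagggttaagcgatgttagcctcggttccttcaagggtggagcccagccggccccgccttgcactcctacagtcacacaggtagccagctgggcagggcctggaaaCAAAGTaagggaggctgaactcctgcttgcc
Slc36a1 (chr11:55204090-55204339, plus strand): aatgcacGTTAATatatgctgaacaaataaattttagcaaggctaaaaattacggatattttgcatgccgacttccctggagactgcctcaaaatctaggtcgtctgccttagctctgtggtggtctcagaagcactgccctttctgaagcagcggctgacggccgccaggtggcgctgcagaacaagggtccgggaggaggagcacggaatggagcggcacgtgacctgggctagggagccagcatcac
Slc6a19 (chr13:73692637-73692886, minus strand): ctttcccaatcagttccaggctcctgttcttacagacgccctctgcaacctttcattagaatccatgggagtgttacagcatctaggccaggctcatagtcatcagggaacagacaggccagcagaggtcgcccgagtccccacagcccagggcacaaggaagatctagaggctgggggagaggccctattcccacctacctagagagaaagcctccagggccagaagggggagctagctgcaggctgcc
Slc3a1 (chr17:85028097-85028346, plus strand): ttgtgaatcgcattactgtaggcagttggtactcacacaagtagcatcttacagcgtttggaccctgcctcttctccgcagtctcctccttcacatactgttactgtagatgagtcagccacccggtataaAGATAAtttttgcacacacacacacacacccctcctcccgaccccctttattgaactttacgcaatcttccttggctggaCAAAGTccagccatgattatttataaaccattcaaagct
Slc7a9 (chr7:35448842-35449091, plus strand): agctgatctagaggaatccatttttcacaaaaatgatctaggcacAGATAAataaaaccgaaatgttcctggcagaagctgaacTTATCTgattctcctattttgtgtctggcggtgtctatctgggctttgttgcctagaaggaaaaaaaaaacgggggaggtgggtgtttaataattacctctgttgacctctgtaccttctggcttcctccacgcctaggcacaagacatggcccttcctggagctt
In Slc15a1 the capitals mark CAAAGT, a half-site of the enterocyte factor HNF4, and in Slc36a1 GTTAAT, a half-site of HNF1. In Slc3a1 they mark the GATA motif AGATAA and CAAAGT, and in Slc7a9 they mark AGATAA on the plus strand and, as TTATCT, on the minus strand. No marked motif stands in the Slc6a19 stretch.

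The 5 motifs were searched in each whole RefSeq window, from 250 bases before to 50 bases after the start, on both strands, and no match overlapped another. The 10 genes had 15 windows, 5 of them of Slc7a7, against 32851 windows for all 27025 genes. Slc7a7 thus had more chances of a match, and the shares per gene are not like for like. GTTAAT was in a window of 4 of the 10 genes (Slc36a1, Slc3a1, Slc6a20a and Slc7a7), against 8.24% of 27025 genes with a promoter in the table. CAAAGT was in 3 (Slc15a1, Slc3a1 and Slc7a7), against 16.1% of all genes, and AGATAA was in 3 (Slc3a1, Slc7a7 and Slc7a9), against 12.7%. TTTATG, the CDX2 motif, was in none of the 10 and in 13.6% of all genes. TTGCATCA, the amino acid response element, was in Slc7a7 alone of the 10 and in 1.03% of all genes. A match describes the letters only and was not tied to any of the differences below.

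Depth was 37205896 to 58251332 counts per library, and every transporter had at least 423 counts in each library. Enterocyte markers, which define absorptive epithelium, summed to 54640 to 89070 CPM in C3H and 61720 to 80350 CPM in B6, with 0 of 10 called different. Markers of pancreatic acinar cells, which are no part of jejunum, were uneven: the 10 markers summed to 55.37, 3100, 90.54 and 1393 CPM in C3H and to 283, 104.9, 31.27 and 44.75 CPM in B6. Clps and Cela1 made up nearly all of the sum in C3H 1 (47.6 and 7.301 CPM), B6 4 (24.01 and 6.949 CPM) and B6 5 (35.72 and 8.062 CPM). In these libraries the other markers were near 0, so such low sums need not be pancreatic RNA. T cell markers fell in C3H, 7 of 7, and summed to 37.13 to 52.78 CPM in C3H and 69.46 to 88.72 CPM in B6. Plasma cell and B cell markers summed to 759.8 to 1025 CPM in C3H and 1147 to 1392 CPM in B6, with 2 of 8 lower. Macrophage and dendritic cell markers had 2 of 9 higher, smooth muscle markers 0 of 6 called, crypt and proliferation markers 0 of 8, and proximal small intestine markers 2 of 5 higher (Cybrd1 and Slc40a1). Distal small intestine markers summed to 203.1 to 240.6 CPM in C3H and 139.8 to 167.5 CPM in B6. Of the 5, 4 were tested, with 2 higher (Guca2a and Nr1h4) and 1 lower (Slc51b). Guca2a, with a mean of 133.3 CPM in C3H and 54.11 CPM in B6, made up most of the C3H sum. Slc51b had 37.83 CPM in C3H and 79.75 CPM in B6. Fabp6, at most 0.157 CPM in any library, was below the filter, and Slc10a2, at most 1.7 CPM, was not called. Whether these shifts in cell content play a part in the transporter differences was not tested, and in bulk tissue fewer cells of a type and less RNA per cell cannot be told apart. Slc15a2, a gene outside the 10, had 8 to 10 counts in the C3H libraries, and in B6 it had 8 counts in B6 3 and 343 to 426 in the other 3 libraries. The reason was not tested, so what B6 3 stands for as a B6 library is in doubt, and without it 0 of the 10 transporters were called. In the strain-specific transcript H2-Ea-ps, B6 3 went with its label, with 0 counts against 3844 to 4685 in C3H. Without B6 3 the log2 fold changes were −0.418 for Slc15a1 and −0.445 for Slc36a1, against −0.431 and −0.475 with all libraries.

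Of the 18025 genes tested, 3857 (21.4%) differed between the strains, 1817 lower in C3H (10.1%) and 2040 higher (11.3%). Of the 10 transporters, 2 were lower and 0 higher, so 2 of 10 were called against 21.4% of all genes, which is no result about the group. Their median log2 fold change was −0.19, against 0.03 over all genes tested. Below 0 were 9 of the 10 estimates, against 8302 of 18025 over all genes tested. The 10 genes varied together within strains, so these 9 are not separate observations. In 3 genes, all lower in C3H, no C3H library reached the lowest B6 library, and 24.4% of all genes tested had strains that did not overlap in one direction or the other.

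**Figure D1:**
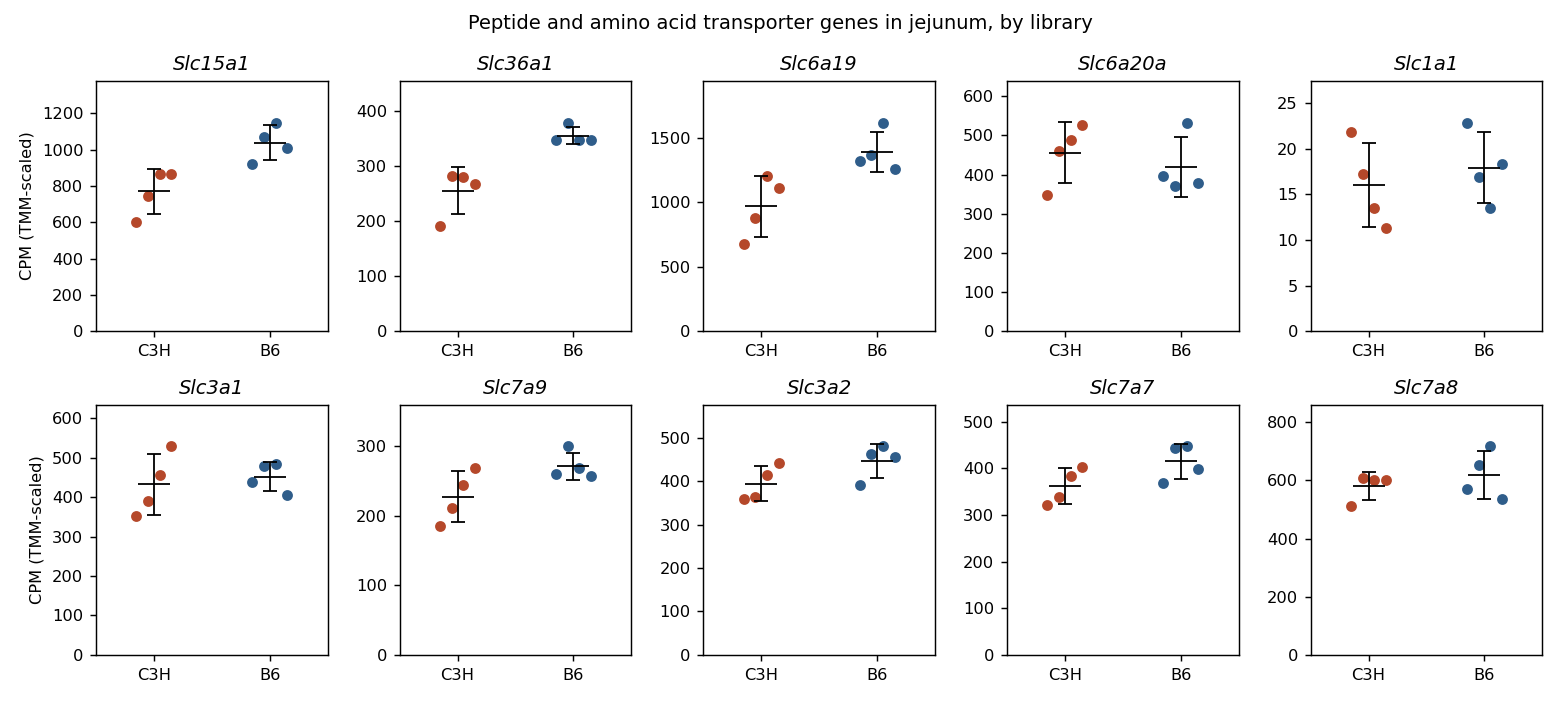
CPM of each transporter gene (vertical axis, from 0, TMM-scaled) in the 4 C3H and the 4 B6 libraries, with the mean and SD as bars. In Slc15a1, Slc36a1 and Slc6a19 every C3H point lies below every B6 point, and in the other 7 genes the strains overlap.

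Slc15a1 (ENSMUSG00000025557, chromosome 14) encodes PEPT1, which carries dipeptides and tripeptides with protons across the brush border. It had 602.2, 745, 864 and 868.8 CPM in C3H, against 920.8, 1070, 1149 and 1012 CPM in B6. The highest C3H library lay below the lowest B6 library, and library C3H 1 was the lowest of all 8. Means were 770 ± 125.7 CPM in C3H and 1038 ± 96.21 CPM in B6 (SD, n = 4 each), a log2 fold change of −0.43 (SE 0.135, 95% interval −0.728 to −0.133, edgeR adjusted p = 0.0429). The direction was the same without any 1 library, but the call was lost in edgeR without C3H 1 (adjusted p = 0.0565, log2 fold change −0.34), C3H 3 (0.115), B6 3 (0.0957), B6 4 (0.0994) or B6 5 (0.0715). Dropping the 4 libraries with most pancreatic RNA by an earlier look at these data (C3H 3, C3H 5, B6 2 and B6 3) left 2 per strain. Without these pancreas-rich libraries the log2 fold change was −0.57 and the adjusted p 0.233.

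Slc36a1 (ENSMUSG00000020261, chromosome 11) encodes PAT1, a proton-coupled carrier of small neutral amino acids such as glycine and proline, found at the brush border and in lysosomes. Its values were 192, 282.8, 280.6 and 267.6 CPM in C3H, against 347.5, 379, 348.1 and 347.2 CPM in B6. The strains were well apart: 3 B6 libraries lay within 1 CPM of each other, the fourth was higher, and C3H 1 stood below the other C3H libraries. The mean was 255.7 ± 43.04 CPM in C3H and 355.4 ± 15.7 CPM in B6 (SD, n = 4 each), a log2 fold change of −0.47 (SE 0.122, 95% interval −0.743 to −0.207, edgeR adjusted p = 0.0166). Leaving out B6 3 gave a log2 fold change of −0.45 and an adjusted p of 0.0508, and leaving out the 4 pancreas-rich libraries gave −0.57 and 0.154. Without any other 1 library the call held.

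Slc6a19 (ENSMUSG00000021565, chromosome 13) encodes B0AT1, the sodium-coupled brush border carrier of neutral amino acids. It was the most abundant of the 10 per kilobase of exon, with 677.3, 882.9, 1209 and 1113 CPM in C3H and 1322, 1368, 1619 and 1257 CPM in B6. All 4 C3H libraries lay below all 4 B6 libraries, and the C3H libraries were widely spread. Mean levels were 970.4 ± 238.4 CPM in C3H and 1392 ± 158.1 CPM in B6 (SD, n = 4 each), with a log2 fold change of −0.52 (SE 0.175, 95% interval −0.907 to −0.133, edgeR adjusted p = 0.0578). This did not pass the threshold, although it did in 9 of 21 alternatives, among them DESeq2 (adjusted p = 0.00846), edgeR without C3H 4 (0.0314) and edgeR without C3H 5 (0.0492).

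Slc6a20a (ENSMUSG00000036814, chromosome 9), the brush border carrier of proline and other imino acids, was the only one of the 10 with an estimate above 0. Its levels were 347, 459.4, 488 and 527.8 CPM in C3H and 395.8, 369.9, 532.5 and 379.1 CPM in B6. The strains overlapped: B6 4 was the highest of all 8 libraries and C3H 1 the lowest. The log2 fold change was 0.12 (SE 0.153, 95% interval −0.217 to 0.456, edgeR adjusted p = 0.645), and it was −0.14 without the 4 pancreas-rich libraries. How reads that match both this gene and its close copy Slc6a20b were counted is not known. Slc6a20b had 15.76 ± 5.983 CPM in C3H and 11.52 ± 4.78 CPM in B6 (SD, n = 4 each).

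Slc1a1 (ENSMUSG00000024935, chromosome 19) encodes EAAT3, the carrier of glutamate, aspartate and cysteine, and was the least abundant of the 10 per kilobase of exon. It had 21.81, 17.26, 13.45 and 11.36 CPM in C3H and 22.84, 16.93, 13.47 and 18.34 CPM in B6. The 2 strains covered nearly the same range. Its log2 fold change was −0.16 (SE 0.203, 95% interval −0.607 to 0.287, edgeR adjusted p = 0.64), and 0.14 without the 4 pancreas-rich libraries.

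The apical cystine and basic amino acid carrier is a heteromer of Slc3a1 (rBAT, ENSMUSG00000024131, chromosome 17) and Slc7a9 (b0,+AT, ENSMUSG00000030492, chromosome 7). Slc3a1 had 351.5, 391.1, 457 and 528.2 CPM in C3H and 439.1, 478.4, 483.8 and 404.5 CPM in B6, and Slc7a9 had 185.4, 210.3, 243.5 and 268.3 CPM in C3H and 259.4, 299.1, 268.2 and 256.2 CPM in B6. C3H 5 was the highest of all 8 libraries for Slc3a1, and for Slc7a9 3 of the 4 C3H libraries lay below all B6 libraries. The light chain had the lower estimate: the log2 fold change was −0.06 for Slc3a1 (SE 0.129, 95% interval −0.349 to 0.222, edgeR adjusted p = 0.784) and −0.26 for Slc7a9 (SE 0.117, interval −0.513 to 0.00305, adjusted p = 0.156). Neither passed, except Slc7a9 without C3H 5 (adjusted p = 0.0477), and the Slc3a1 estimate was 0.01 without C3H 1.

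On the basolateral side Slc3a2 (4F2hc or CD98, ENSMUSG00000010095, chromosome 19) is the shared heavy chain of Slc7a7 (y+LAT1, exit of basic amino acids in exchange for neutral ones, ENSMUSG00000000958, chromosome 14) and Slc7a8 (LAT2, exchange of neutral amino acids, ENSMUSG00000022180, chromosome 14). Slc3a2 had 358.1, 362.4, 413.8 and 442.1 CPM in C3H and 390.8, 462.1, 479.8 and 454.8 CPM in B6. Slc7a7 had 322.4, 339.2, 384.1 and 403.3 CPM in C3H and 369, 444.4, 447.1 and 399.4 CPM in B6. Slc7a8 had 511.4, 609, 601 and 602.7 CPM in C3H and 569.1, 652.2, 717.2 and 536.6 CPM in B6. In all 3 genes the strains overlapped, and each C3H library lay below the B6 mean. None passed: the log2 fold changes were −0.18 for Slc3a2 (SE 0.104, 95% interval −0.411 to 0.0482, edgeR adjusted p = 0.261), −0.20 for Slc7a7 (SE 0.105, interval −0.427 to 0.0343, adjusted p = 0.224) and −0.09 for Slc7a8 (SE 0.115, interval −0.344 to 0.163, adjusted p = 0.64).

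**Figure D2:**
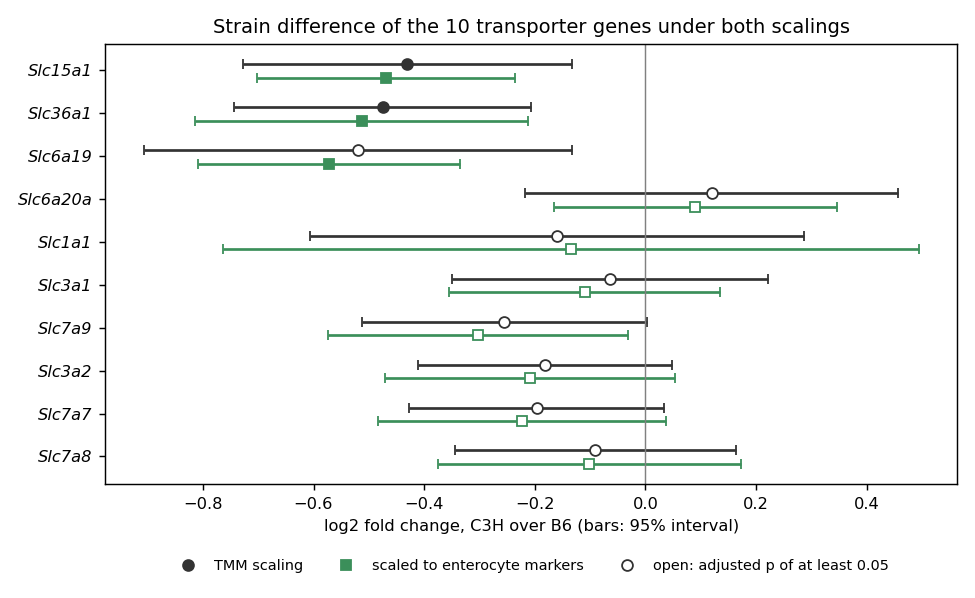
Log2 fold change of each transporter gene, C3H over B6, with its 95% interval, under TMM scaling (circles) and with library size set to the summed enterocyte markers (squares). Filled symbols passed the adjusted threshold of 0.05, which Slc15a1 and Slc36a1 did under both scalings and Slc6a19 under the second.

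To set the transporters against the enterocyte transcripts of the same library, the fit was repeated with each library scaled to its summed enterocyte markers. Under that scaling 11.0% of all genes tested were called, and 3 of the 10 transporters were lower in C3H. Within strains 9 of the 10 ran with this sum, so that share is not like for like. The 3 calls are no result about the group. The log2 fold change was −0.47 for Slc15a1 (SE 0.11, adjusted p = 0.00747), −0.57 for Slc6a19 (SE 0.11, adjusted p = 0.00156) and −0.51 for Slc36a1 (SE 0.14, adjusted p = 0.0235), each by edgeR over all genes tested. The differences of these 3 genes were as large relative to this sum as under TMM scaling. The sum is weighted to abundant markers: Apoa4 had a mean of 25360 of 70650 CPM in C3H and 23300 of 68340 CPM in B6. Single markers did not move alike, with 6 of 10 estimates below 0 and a range from −0.34 (Krt20) to 0.47 (Alpi). The size of the differences relative to single markers was not tested.

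Levels were compared between genes as CPM per kilobase of exon. Slc6a19 stood first in both strains, with 193.9 ± 47.63 CPM per kilobase in C3H and 278 ± 31.59 in B6 (SD, n = 4 each). In C3H the order from there was Slc3a1, Slc15a1, Slc7a8, Slc3a2, Slc6a20a, Slc7a7, Slc7a9, Slc36a1 and Slc1a1, and in B6 it was Slc15a1, Slc3a1, Slc3a2, Slc7a7, Slc7a8, Slc6a20a, Slc7a9, Slc36a1 and Slc1a1. Most neighbours in that order overlapped. In C3H the ranges were apart only between Slc15a1 and Slc7a8, between Slc7a9 and Slc36a1, and between Slc36a1 and Slc1a1. In B6 they were apart between Slc6a19 and Slc15a1, between Slc3a1 and Slc3a2, and for the same last 2 steps. Slc15a1 had 157.6 ± 25.73 CPM per kilobase in C3H and 212.5 ± 19.7 in B6, and Slc3a1 had 190.2 ± 34.13 in C3H and 198.8 ± 16.34 in B6 (SD, n = 4 each). At the other end Slc1a1 had 1.934 ± 0.5563 CPM per kilobase in C3H and 2.167 ± 0.4699 in B6.

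The transcripts of partner chains were set against each other in every library. For Slc3a1 over Slc7a9 the log2 ratio of CPM per kilobase was 1.16, 1.13, 1.15 and 1.21 in C3H and 0.996, 0.914, 1.09 and 0.895 in B6. All 4 C3H libraries lay above all 4 B6 libraries. The mean was 1.16 ± 0.0359 in C3H and 0.973 ± 0.0879 in B6 (SD, n = 4 each). Without the log, the heavy over light chain ratio of CPM per kilobase was 2.24 in C3H and 1.96 in B6, which does not count molecules. This ratio is a description without a test. Slc3a1 shares exon bases with an opposite-strand gene, Prepl, and how reads there were counted is not known. The genes' exon lengths enter the size of the ratio but not its difference between strains. Slc3a2 over Slc7a7 had a mean log2 ratio of 0.03 ± 0.025 in C3H and 0.02 ± 0.0568 in B6, close to equal CPM per kilobase. Slc3a2 over Slc7a8 had a mean of −0.06 ± 0.13 in C3H and 0.04 ± 0.154 in B6 (SD, n = 4 each). In both of these basolateral pairs the strains overlapped.

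**Figure D3:**
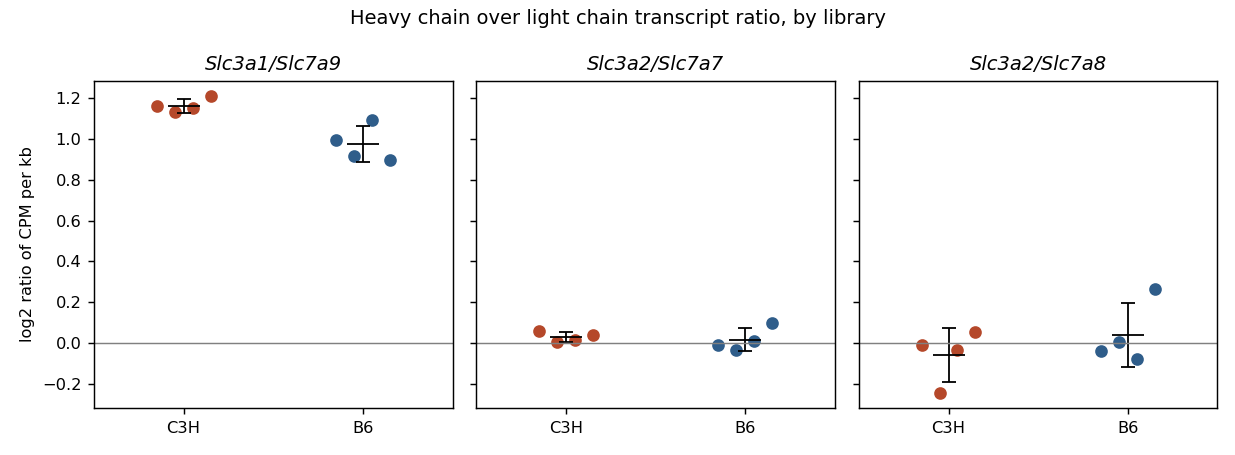
Log2 ratio of heavy chain to light chain transcripts (CPM per kilobase of exon) in each library, with mean and SD as bars. Slc3a1 over Slc7a9 is higher in all 4 C3H libraries than in any B6 library, and both Slc3a2 ratios lie around 0 with overlapping strains.

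Within strains the genes varied together. After each strain's mean was taken out, the log2 CPM of the 45 pairs of genes had a median Pearson r of 0.722 over the 8 libraries, and 36 pairs were positive. The closest pairs were Slc3a2 with Slc7a7 (r 0.952, Spearman 0.976), Slc3a1 with Slc7a9 (r 0.943, Spearman 0.881) and Slc15a1 with Slc6a19 (r 0.94, Spearman 0.881). These are 2 heteromer pairs and 2 carriers of the brush border. Without the 2 libraries farthest from the median of Slc3a2, Slc3a1 and Slc6a19, r was 0.896, 0.81 and 0.85 over 6 libraries. These values kept the strain means of all 8 libraries. Partners did not always run this closely: Slc3a2 with Slc7a8, also a heteromer pair, had an r of 0.548 over the 8 libraries. Slc15a1 with Slc7a7, which are not partners, had an r of 0.916. All 9 negative pairs were those of Slc1a1, with r from −0.577 with Slc36a1 to −0.957 with Slc15a1. These are descriptions over libraries that share depth and cell content. With strain means taken anew without C3H 1, the median r was 0.506 over 7 libraries, with 32 pairs positive.

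Library C3H 1 stands out in this respect. It had the lowest value of all 8 libraries for 9 of the 10 genes, Slc1a1 being the other, and it also had the lowest enterocyte sum (54640 CPM) and the highest sum of crypt and proliferation markers (820.6 CPM, against 455.1 to 596 CPM in the other C3H libraries and 482.7 to 672.5 CPM in B6). With strain means taken out, the enterocyte sum ran with 9 of the 10 genes (median r 0.876) and the crypt sum ran the other way (median r −0.861). Slc15a1 had an r of 0.924 with the enterocyte sum, and 0.888 without the 2 farthest libraries, C3H 1 and C3H 5. Here and below, values without these libraries kept the strain means of all 8. Slc1a1 was reversed, with an r of 0.967 with the crypt sum and −0.966 with the enterocyte sum, and 0.97 and −0.934 without the same 2 libraries. Slc36a1 was the loosest of the 10, with an r of 0.552 with the enterocyte sum, which was −0.05 without them, and of −0.704 with the crypt sum, which was −0.14. The relation was also weaker without these 2 libraries for Slc7a9, with an r of 0.51 in place of 0.844 for the enterocyte sum and −0.317 in place of −0.817 for the crypt sum. For Slc3a1 the crypt sum gave −0.523 in place of −0.858. The part of cell content in the strain differences was not tested by these values.

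**Figure D4:**
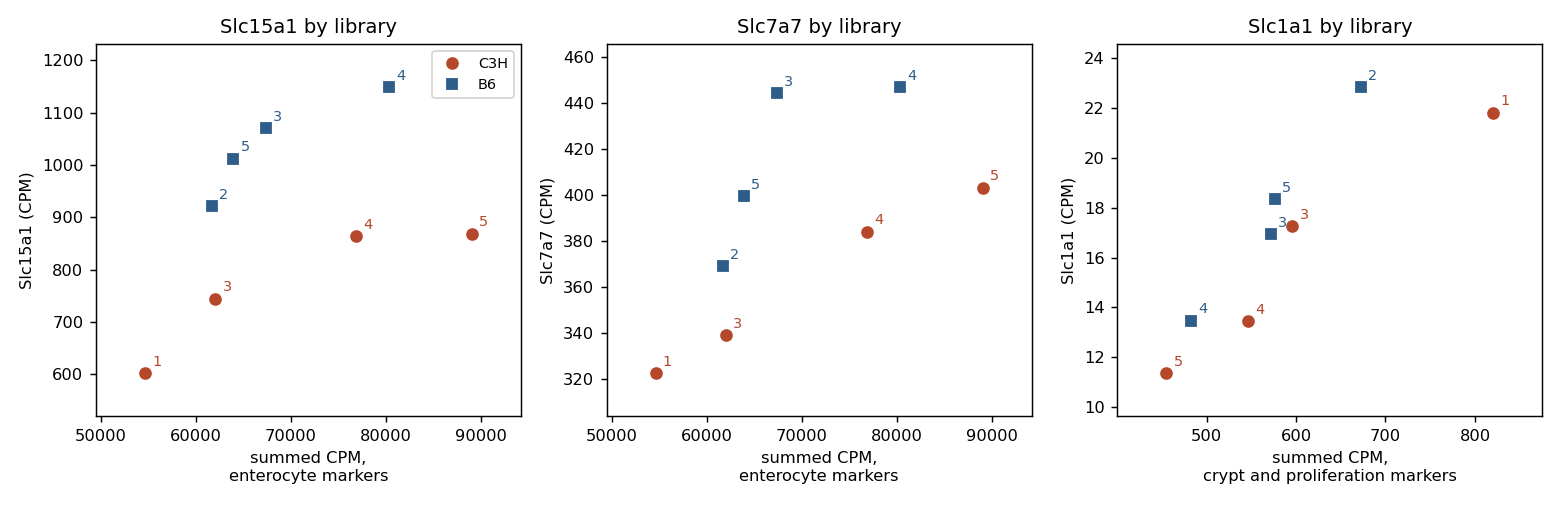
CPM of Slc15a1 and Slc7a7 against the summed enterocyte markers, and of Slc1a1 against the summed crypt and proliferation markers, 1 point per library with its number (circles C3H, squares B6). Slc15a1 and Slc7a7 are higher in libraries with a higher enterocyte sum, Slc1a1 in libraries with a higher crypt sum, and the strains are apart in Slc15a1 and overlap in Slc7a7 and Slc1a1.

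For each of the 2 genes that passed, the most similar of 37 other tested peptide and amino acid transporter genes was found by the same strain-centred r over 8 libraries. For Slc15a1 it was Slc6a19 (r 0.94). For Slc36a1 it was Slc38a7, a lysosomal glutamine carrier (r 0.911). Leaving out C3H 1 gave 0.587, but with the strain means of all 8 libraries kept, so C3H 1 still shaped that value. How alike the 2 genes are without C3H 1 is thus not shown. Slc38a7 itself had 22.04 ± 2.915 CPM in C3H and 22.5 ± 0.7803 CPM in B6 (SD, n = 4 each), with a log2 fold change of −0.03 (edgeR adjusted p = 0.869), and the estimate was above 0 with library totals in place of TMM (0.02).

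Among 28 other plasma membrane carriers of amino acids and peptides, 21 could be tested, 2 were higher in C3H and 1 was lower, with a median log2 fold change of 0.14. Of all genes tested 21.4% were called, so the calls here and in the lists below are no result about a list. The 7 below the filter on low counts include Slc15a2, the second peptide transporter of the plasma membrane. The 3 called genes had at most 2.231 CPM in any library. Slc1a2, the glutamate carrier EAAT2, was higher, with 2.159, 1.747, 1.381 and 1.074 CPM in C3H and 0.9297, 0.9312, 0.6099 and 0.8174 CPM in B6 (log2 fold change 0.97, SE 0.238, edgeR adjusted p = 0.0132). Slc38a3, a glutamine carrier, was higher, with 0.3533, 1.152, 0.3325 and 0.9132 CPM in C3H and 0.1063, 0.2696, 0.1848 and 0.2415 CPM in B6 (1.75, SE 0.458, adjusted p = 0.0184). Its 2 highest libraries, C3H 3 and C3H 5, were also the 2 with the most pancreatic transcripts, and leaving out C3H 3 ended the call (1.34, adjusted p = 0.0656), as did leaving out B6 2 (1.56, adjusted p = 0.0503) or the 4 pancreas-rich libraries, where the log2 fold change was 0.68 (adjusted p = 0.44). Slc7a2, a carrier of basic amino acids, was lower, with 1.021, 1.382, 0.5115 and 0.564 CPM in C3H and 2.231, 1.764, 1.996 and 1.988 CPM in B6 (−1.17, SE 0.277, adjusted p = 0.0111). With enterocyte scaling Slc1a2 (log2 fold change 1.00, adjusted p = 0.0874) and Slc7a2 (−1.13, adjusted p = 0.0564) did not pass, with estimates about as large.

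The 3 genes of that list with the highest CPM among those that did not pass were Slc43a2, Slc16a10 and Slc6a6. Slc43a2, a carrier of large neutral amino acids, had 959.1 ± 128.2 CPM in C3H and 1146 ± 70.79 CPM in B6 (log2 fold change −0.26, edgeR adjusted p = 0.158). Slc16a10, the basolateral carrier of aromatic amino acids, had 360.6 ± 42.41 CPM in C3H and 379.3 ± 29.36 CPM in B6 (−0.07, adjusted p = 0.688). Slc6a6, the taurine carrier, had 339.5 ± 46.1 CPM in C3H and 264.1 ± 45.77 CPM in B6 (SD, n = 4 each; 0.36, adjusted p = 0.0866), and passed without C3H 1 (0.036), without B6 4 (0.0212) and with library totals (0.0117).

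**Figure D5:**
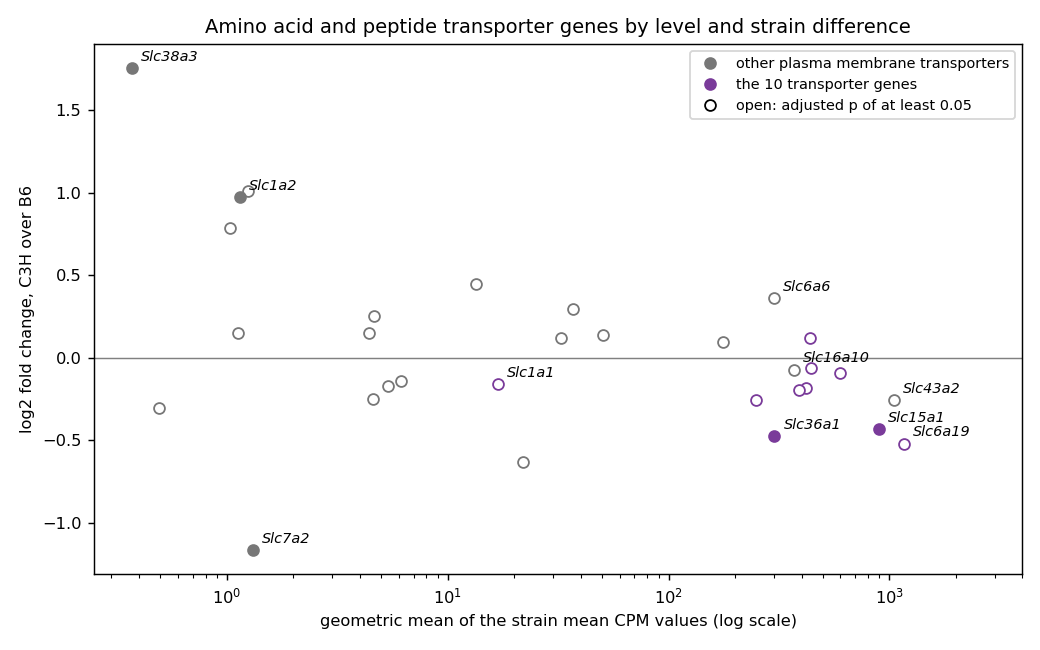
Log2 fold change, C3H over B6, of the 10 transporter genes and of 21 other plasma membrane carriers against their level (log axis, geometric mean of both strains' mean CPM, not corrected for length). Filled points passed the adjusted threshold: Slc15a1 and Slc36a1 lie at high CPM below 0, and the 3 filled points of the other list lie at the low end.

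None of 7 lysosomal carriers passed, against 21.4% of all genes tested, with a median log2 fold change of 0.09. Ctns, the cystine exporter of lysosomes, had the highest CPM of them, with 31 ± 3.913 CPM in C3H and 25.24 ± 2.03 CPM in B6 (SD, n = 4 each; log2 fold change 0.30, edgeR adjusted p = 0.0624). It passed without C3H 1 (0.0136) and without B6 4 (0.044), with library totals (0.0104) and with upper-quartile scaling (0.0422). Partner proteins of the apical carriers were followed as well. Anpep, the aminopeptidase that releases amino acids at the brush border, had 7350, 7759, 8770 and 8912 CPM in C3H and 9814, 11810, 9764 and 10720 CPM in B6 (log2 fold change −0.36, edgeR adjusted p = 0.182). The Anpep libraries did not overlap between strains, but the gene did not pass. Cltrn, which serves the neutral amino acid carrier in kidney, was higher in C3H at a trace level, 0.5603 ± 0.06431 CPM in C3H and 0.2049 ± 0.07288 CPM in B6 (SD, n = 4 each; 1.43, SE 0.278, adjusted p = 0.00347).

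Of 18 genes of amino acid metabolism, 1 was higher and 1 lower, against 21.4% of all genes tested that were called. Got2, the mitochondrial aspartate aminotransferase, was higher with 70.24, 74.18, 73.12 and 84.09 CPM in C3H and 59.61, 66.36, 54.3 and 63.55 CPM in B6 (log2 fold change 0.31, SE 0.0914, edgeR adjusted p = 0.0342). It did not pass without C3H 3 (0.067), C3H 4 (0.0608), C3H 5 (0.0851), B6 2 (0.0978), B6 4 (0.0912) or B6 5 (0.0516). Prodh, the first enzyme of proline breakdown, was lower with 17.45, 18.16, 24.58 and 17.75 CPM in C3H and 29.06, 26.78, 30.13 and 27.57 CPM in B6 (−0.54, SE 0.111, adjusted p = 0.00483). Of 14 genes of the amino acid starvation response, 1 was called, against the same 21.4%. Chac1, which degrades glutathione, was lower with 0.4122, 0.3839, 0.4092 and 0.3492 CPM in C3H and 1.089, 0.8087, 0.7762 and 1.022 CPM in B6 (−1.24, SE 0.198, adjusted p = 0.00099). With 2 libraries per strain left after the 4 pancreas-rich ones were dropped, none of Cltrn (log2 fold change 1.5, adjusted p = 0.0807), Got2 (0.27, adjusted p = 0.365), Prodh (−0.47, adjusted p = 0.174) and Chac1 (−1.13, adjusted p = 0.0689) passed. With enterocyte scaling Got2 (0.27, adjusted p = 0.462) and Prodh (−0.57, adjusted p = 0.0627) did not pass. These estimates were close to those from all libraries. The median log2 fold change was 0.15 over the metabolic genes and 0.00 over the starvation response genes, against 0.03 over all genes tested.

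Of the 10 genes, 4 share exon bases with a gene on the opposite strand, and the strand setting of the counting is not given in the sources used here. Slc1a1 shares 31.9% of its exon bases with 4430402I18Rik, which was higher in C3H (4.661 ± 0.9027 CPM in C3H and 3.014 ± 0.59 CPM in B6, edgeR adjusted p = 0.0291). Slc3a1 shares 26.5% with Prepl (17 ± 1.785 CPM in C3H and 18.55 ± 1.762 CPM in B6, adjusted p = 0.422). Slc7a7 shares 7.0% with Oxa1l, which was higher in C3H (51.67 ± 3.084 CPM in C3H and 37.58 ± 2.732 CPM in B6, SD, n = 4 each, adjusted p = 0.00197). Slc6a20a shares 13.8% with the antisense gene Gm17120. Without a known strand setting, it cannot be told how reads in shared exon bases were counted or whether they were left out. Slc1a1 has the fewest reads of the 10.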

How the data were processed

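Stranded mRNA libraries were made from 200 ng of jejunal RNA with an integrity number above 7, per the labels' protocols. STAR 2.7.9a, HTSeq 2.0.2 and GRCm39 are named in the submitters' processing notes. The deposited table holds raw counts per Ensembl gene, not normalized by the authors. Its annotation release and strand setting were not given in the sources used here.

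Symbols, exon lengths and exon overlaps came from GENCODE M21 (GRCm38), which paired 51948 of 56941 identifiers with a symbol. Samples were grouped by the strain in their labels. Counts were fitted in edgeR 4.0.16 (R 4.3.3) with TMM scaling, filterByExpr at a minimum count of 10, the quasi-likelihood F test and Benjamini-Hochberg adjustment over 18025 genes. Standard errors were derived from the fold change and F. The fit was tested on simulated data. Log2 CPM for correlations used a prior count of 2.

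The 10 genes, the lists and the tests were chosen with earlier results of these data known. Named were all 10 genes; from the other plasma membrane carriers up to 5 per direction by adjusted p and the 3 most abundant not passing; and from each further list up to 3 per direction, or the 2 most abundant where none passed. Anpep and genes that overlap a transporter were added. Some genes of the lists are not reported here. Alternatives covered scaling, filter, tool (DESeq2 1.42.0, limma-voom 3.58.1), dispersion, threshold, left-out libraries and a replicate block. Libraries of 1 strain differed by 21.2 to 81.2 in chi-square per degree of freedom, so no pair differed by counting noise alone. Promoter sequences are from RefSeq (GRCm38.p6), and all 10 genes matched. Protein sequences were not used here.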

Additional observations from a re-analysis of the deposited data

Results flagged for a closer look

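In 5 of 44 groups of 4 libraries (22 genes in 2 strains), 1 library stood far from the other 3 by Dixon's criterion, which chance meets in about 1 of 20 groups. Slc7a8 was at 511.4 CPM in C3H 1, against 601 to 609 CPM in the other C3H libraries. Slc36a1 was at 192.0 CPM in C3H 1, with 267.6 to 282.8 CPM in the others, and at 379.0 CPM in B6 3, with 347.2 to 348.1 CPM in the other B6 libraries. Slc6a20a was at 532.5 CPM in B6 4, the B6 library with the highest enterocyte sum (80350 CPM), and at 369.9 to 395.8 CPM in the other B6 libraries. Prodh was at 24.58 CPM in C3H 4, against 17.45 to 18.16 CPM in the other C3H libraries and 26.78 to 30.13 CPM in B6.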

How the results depend on the processing

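With 4 libraries per strain the count of transporters called depended on single libraries. Of the 10 transporters, 2 were called with all libraries, and 0 to 4 when 1 library was left out: 0 without B6 3 and 4 without C3H 5. Without the 4 pancreas-rich libraries 0 were called, at an adjusted p under 0.01 also 0, and with the replicate block on 6 libraries 1, with Slc15a1 at an adjusted p of 0.0997. Deviations of libraries with the same number had an r of 0.109, 0.136 and −0.0437 for numbers 3, 4 and 5, against −0.141 to 0.0314 between different numbers, so the numbers did not pair in all 3, and not every library correlated best with its own number. Over all genes the block gave 2919 calls, against 3212 on the same 6 libraries without it. The other plasma membrane carriers gave 3 calls, and 5 with DESeq2, 6 with no filter, 1 with a mean of at least 100 counts (Slc15a2, the 3 called genes being below that mean), 1 with enterocyte scaling (Slc38a3), 0 at an adjusted p under 0.01, and 3 to 6 when 1 library was left out. All genes gave 3857 calls, 1987 with enterocyte scaling, 1675 without the pancreas-rich libraries, 2326 at an adjusted p under 0.01, and 3099 to 3682 when 1 library was left out. Estimates that turned their direction were small: Slc6a20a (−0.136) and Slc1a1 (0.143) without the pancreas-rich libraries, Slc3a1 when 1 library was left out (−0.176 to 0.0116, the highest without C3H 1), Slc16a10 on the 6 libraries with the block (0.00934) and without it (0.00678), and Slc38a7 with library totals (0.0204), on the same 6 libraries with the block (0.0319) and without it (0.0315), and when 1 library was left out (−0.0853 to 0.049, the highest without C3H 1). The causes were not tested. The strain difference in the log2 ratio of Slc3a1 to Slc7a9 was 0.163 to 0.227 when 1 library was left out, that of Slc3a2 to Slc7a7 −0.00237 to 0.0414, and that of Slc3a2 to Slc7a8 −0.136 to −0.0224. A prior count of 0.5 left the median correlation at 0.722. Over the fold changes of all named genes and all settings, 37 values lost the call, 18 gained it and 9 turned their direction. The rest kept their direction and side of the threshold.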

Other observations

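Slc15a2, which encodes PEPT2, a proton-coupled peptide carrier best known from kidney, was below the filter of the test and was looked at after its values were seen. It had 10, 10, 8 and 8 counts in the C3H libraries 1, 3, 4 and 5, and 382, 8, 426 and 343 counts in the B6 libraries 2, 3, 4 and 5. In CPM this was 0.196, 0.192, 0.205 and 0.215 in C3H, against 10.1, 0.196, 7.87 and 6.37 in B6. Library B6 3 lay at the C3H level, and the other 3 B6 libraries lay far above it. On log2(CPM + 0.1) the gap between B6 3 and the nearest other B6 library was the widest for this gene of all 56941 in the table, among gaps below the others. With no filter on low counts the log2 fold change was −4.95 (SE 0.68, edgeR adjusted p = 2.57e-05), and among genes with a mean of at least 100 counts it was −4.92 (SE 0.91, adjusted p = 0.00328). The gene was chosen on these values, so the fits describe them and are no independent test.

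B6 3 went with its label in the strain-specific transcript H2-Ea-ps, which had 4685, 4539, 4595 and 3844 counts in C3H and 0, 0, 0 and 4 counts in B6. In Ildr1, a gene on the same chromosome 16 as Slc15a2, B6 3 also lay with its strain: 0.687, 0.71, 0.946 and 0.833 CPM in C3H, against 3.16, 2.28, 2.48 and 1.65 CPM in B6. In Eaf2 on the same chromosome the strains overlapped, with 1.81, 1.21, 1.56 and 1.29 CPM in C3H and 2.15, 1.62, 1.64 and 1.76 CPM in B6. B6 3 did stand apart in the B cell gene Ms4a1, which was at 0.376 to 2 CPM in C3H, and in B6 at 7.38 CPM in B6 3 and 0.0531 to 0.186 CPM in the other 3 libraries.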
